A study of Mus musculus with 4 samples.

Results

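Accessible chromatin was mapped by ATAC-seq, which marks open DNA by inserting adapters with the Tn5 transposase, in pachytene spermatocytes of mouse testis, and the sites described here are wide peaks found only in the Znhit1 knockout and lying away from gene ends. Of the 21004 separate peaks of the knockout list, 725 met 4 conditions. They lay on an autosome (chromosomes 1 to 19), were at least 500 bp wide, shared no base with any control peak, and were more than 1 kb from both ends of every annotated gene of any kind. Width, absence from the control list and distance from gene ends chose the sites, so these properties describe them and are no findings. The labels name 4 libraries with the tag P35, 2 of genotype Znhit1_KO and 2 of genotype CTRL. One peak list per genotype was analysed, each recorded for replicate 1. The labels name no strain, allele, Cre driver or way of purifying the cells. A single list per genotype leaves the comparison of genotypes unreplicated, and no p-value is printed. Intervals in brackets are 95% intervals for counting error only, by Wilson's method for percentages.

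ZNHIT1 is a subunit of the SRCAP remodelling complex, which exchanges histone H2A for the variant H2A.Z. Open sites away from gene ends can be enhancers, binding sites of insulator proteins, start sites of alternative transcripts inside a gene or, in meiotic cells, recombination hotspots. In mice hotspots are set by PRDM9, a zinc finger protein that marks nucleosomes around its DNA motif, where SPO11 then breaks the DNA early in prophase. At pachytene the breaks are being repaired while homologous chromosomes are held together by the synaptonemal complex.

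Start sites inside genes could be recognised from a RefSeq table of start windows (GRCm38.p6, the assembly named mm10 elsewhere), which gives for each annotated start the 250 bases before it and the 50 after. The next 5 sequences are the 250 bases before starts whose whole window lay inside a site. Starts of predicted genes left aside, they are from the 4 widest such sites and, last, the one with the fewest CpG dinucleotides among the remaining ones. They show the base composition that most of these starts had. Each is written 5′ to 3′ on the strand of the gene, with CpG dinucleotides in capitals.
Zkscan2: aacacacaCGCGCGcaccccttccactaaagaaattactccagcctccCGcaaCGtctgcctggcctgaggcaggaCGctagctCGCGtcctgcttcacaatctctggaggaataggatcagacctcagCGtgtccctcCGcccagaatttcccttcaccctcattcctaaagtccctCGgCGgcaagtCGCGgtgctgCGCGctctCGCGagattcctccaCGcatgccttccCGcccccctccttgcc
Jmjd1c: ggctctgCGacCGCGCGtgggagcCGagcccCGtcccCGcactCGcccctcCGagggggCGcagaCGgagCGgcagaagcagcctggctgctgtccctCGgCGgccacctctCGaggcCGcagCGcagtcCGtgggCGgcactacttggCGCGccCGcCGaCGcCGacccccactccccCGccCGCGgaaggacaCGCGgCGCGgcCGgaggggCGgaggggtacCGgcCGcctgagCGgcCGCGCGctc
Gne: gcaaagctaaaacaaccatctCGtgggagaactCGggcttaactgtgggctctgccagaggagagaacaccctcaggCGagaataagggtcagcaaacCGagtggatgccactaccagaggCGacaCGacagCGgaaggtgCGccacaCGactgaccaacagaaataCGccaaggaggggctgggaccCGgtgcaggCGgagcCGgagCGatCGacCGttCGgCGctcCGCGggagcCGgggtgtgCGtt
Rab21: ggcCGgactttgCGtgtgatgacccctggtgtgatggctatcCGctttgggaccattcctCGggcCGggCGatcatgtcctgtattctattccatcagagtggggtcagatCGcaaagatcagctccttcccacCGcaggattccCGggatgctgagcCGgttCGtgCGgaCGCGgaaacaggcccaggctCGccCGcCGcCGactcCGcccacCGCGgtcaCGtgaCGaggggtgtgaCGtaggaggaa
Fam214b: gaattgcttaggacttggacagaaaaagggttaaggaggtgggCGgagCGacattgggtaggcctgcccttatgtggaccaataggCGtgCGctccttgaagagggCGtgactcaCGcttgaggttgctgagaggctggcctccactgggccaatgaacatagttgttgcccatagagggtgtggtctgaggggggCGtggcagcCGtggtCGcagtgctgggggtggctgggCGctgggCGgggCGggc

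The Zkscan2 sequence (chr7:123500627-123500876, minus strand) held 20 CpG and lay in a site of 1139 bp. The Jmjd1c sequence (chr10:67126838-67127087, plus strand) held 40 CpG and lay in a site of 1032 bp. The Gne sequence (chr4:44072718-44072967, minus strand) held 22 CpG, in a site of 970 bp. The Rab21 sequence (chr10:115315592-115315841, minus strand) held 24, in a site of 943 bp. The Fam214b sequence (chr4:43040302-43040551, minus strand) held 12, in a site of 616 bp. For comparison, the median start window away from gene ends with no peak in either list held 4 CpG in 300 bases. Zkscan2 encodes a zinc finger protein, Jmjd1c a JmjC-domain protein of the histone demethylase family, Gne the enzyme that starts sialic acid synthesis and Rab21 a GTPase of endosomes.

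The libraries were checked against marker genes of pachytene and of other testis cells, counting a peak within 1 kb of either gene end. All 9 pachytene markers, among them Sycp1, Sycp3, Hspa2 and Mybl1, had one in the knockout list and 8 in the control list, where Pgk2 had none. Of 6 Sertoli cell markers, none had a peak in either list. Of 6 markers of Leydig and other somatic cells, Acta2 had one in the knockout list alone. Of 6 spermatogonial markers, 1 had a peak in the knockout list and 3 in the control list, with Zbtb16, Gfra1 and Kit absent from both.

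The 725 sites were 56.5% of the 1284 wide knockout peaks away from gene ends. Over all wide autosomal knockout peaks, 1617 of 6603 (24.5%) shared no base with a control peak. Of the wide autosomal control peaks, 1354 of 6118 (22.1%) shared none with a knockout peak. Without regard to gene ends, the knockout thus had more wide peaks of its own. Chosen by the same rule from the control list, there were 854 control-only sites, 61.5% of 1389. The knockout thus had fewer wide sites of its own away from gene ends than the control, in a ratio of 0.849 (0.768 to 0.938), although it had more peaks of its own there when all widths were counted. These were 10827 of 11975 knockout peaks away from gene ends (90.4%) and 6694 of 7841 control peaks (85.4%). Control-only sites outnumbered knockout-only sites on 12 of 19 autosomes and the reverse held on 6. Chromosome 6 had the largest excess of control-only sites, with 25 knockout-only against 56, and chromosome 11 the largest excess of knockout-only sites, with 65 against 45. Sequencing depth per list is unknown, and its part in these counts was not tested.

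Most sites lay close to the width limit. Their median width was 570 bp (564 to 576), with quartiles of 532 and 644 bp and a maximum of 1381 bp. The 3 narrowest kept were all 500 bp wide and lay inside Sulf1 and Rps6kc1 on chromosome 1 and Svil on chromosome 18. Outside the limit, 3 peaks of 499 bp lay on chromosomes 12, 13 and 17. Of the sites, 363 stood on 1 line of the list, 302 on 2 lines, 54 on 3 and 6 on 4. MACS2 can write an interval once per summit, but the list does not say whether that is the reason. The median distance to the nearest gene end was 9387 bp (8207 to 10745). The closest kept were at Phf21a (1005 bp), Csad (1008 bp) and Ddx6 (1028 bp), and the 3 just excluded were 997, 988 and 983 bp away.

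The 10 widest sites were split between gene interiors and intergenic DNA, and 3 of them lay at an annotated start. The widest, 1381 bp on chromosome 14 (14012262 to 14013642), lay inside Atxn7, which encodes a subunit of the SAGA complex, and covered a start 51.2 kb inside the gene. Zkscan2 held the site of 1139 bp already shown (chromosome 7, 123500016 to 123501154). Rcbtb2 held one of 1135 bp (chromosome 14, 73142831 to 73143965) that met the edge of a start window without covering the start itself. Ido2, the gene of a tryptophan-degrading enzyme, held one of 1147 bp (chromosome 8, 24546394 to 24547540) that met no start window. The start windows gave no strand for Ido2, so its starts may be missing from them. Begain held one of 1081 bp (chromosome 12, 109033291 to 109034371) that also met no window. Celf4, an RNA-binding protein gene, held one of 1126 bp (chromosome 18, 25486305 to 25487430), where starts were not analysed. Outside genes lay sites near Ppp2r3d, a phosphatase subunit gene (1224 bp, chromosome 9, 124493874 to 124495097), and Rab40b (1194 bp, chromosome 11, 121403406 to 121404599), 17012 and 15155 bp from those genes. A site of 1175 bp on chromosome 4 (9824961 to 9826135), 18237 bp from the growth factor gene Gdf6, stood on 4 lines, and one of 1148 bp on chromosome 5 (139331665 to 139332812) lay 5010 bp from Cox19, a gene of cytochrome oxidase assembly.

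Sites at annotated starts inside genes were more frequent among knockout-only than among control-only sites, and far more frequent among shared ones. Over all autosomal positions the knockout had more wide peaks of its own (1617 against 1354), but fewer away from gene ends (725 against 854). Its surplus of wide peaks thus lay within 1 kb of gene ends. Whether the excess at inner starts is separate from that surplus was not tested. The start windows gave no strand for some host genes, such as Ido2, Sulf1, Ddx6 and Gpc6, so starts of those may be missing. Start windows were available on 18 autosomes, which carried 707 of the sites. Of these, 60 (8.49%, 6.65 to 10.8) overlapped a window, against 26 of 815 control-only sites (3.19%, 2.19 to 4.63) and 265 of 548 wide shared sites (48.4%, 44.2 to 52.5). Start windows made up 0.0570% of the sequence more than 1 kb from every gene end. That is a share of bases, while a site counted if any of its bases met a window. The share of bases is therefore no like background for the shares of sites. Among knockout-only sites under 500 bp, 118 of 9802 (1.20%, 1.01 to 1.44) overlapped one. No test was made between these 4 classes, since sites of 1 list share a library and are not replicates of a genotype. The classes also differed in width. Their medians were 570 bp for knockout-only, 579 bp for control-only, 728 bp for shared and 267 bp for the narrow knockout-only sites. Of the 60 sites, 57 covered an annotated start site itself and 26 covered a whole window.

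**Figure D1:**
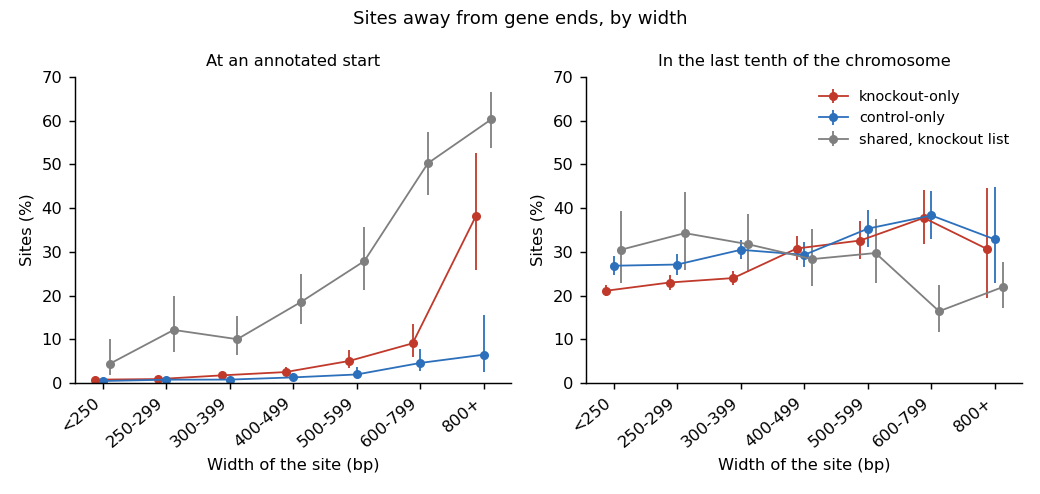
Percentage of sites away from gene ends (y axis) that overlap an annotated start window, left, or lie in the distal 10% of the chromosome, right, by site width in bp (x axis), with 95% Wilson bars. Knockout-only sites at least 800 bp wide met a start window in 38.3% of cases and control-only sites of that width in 6.45%.

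The share at starts went up with width in the knockout-only sites. It was 5.01% (3.33 to 7.47) from 500 to under 600 bp, 9.05% (5.93 to 13.6) from 600 to under 800 bp and 38.3% (25.8 to 52.6) from 800 bp on, where 18 of 47 sites met a window. In the control-only sites the same widths gave 1.92%, 4.56% and 6.45% (2.54 to 15.4), the last being 4 of 62 sites. The 60 sites had a median width of 673 bp (596 to 746), against 567 bp (559 to 573) for the 647 sites that met no window.

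The starts belonged to 60 genes of varied function, none of which is a member of the meiotic gene lists described below. The genes named in this and the next paragraph were chosen after their values were seen. Several act on chromatin or transcription. Kmt2d, a histone H3K4 methyltransferase, held a site of 1003 bp on chromosome 15 (98871322 to 98872324) that met a window without covering the start. Baz2a, a subunit of the nucleolar remodelling complex, held one of 834 bp (chromosome 10, 128092641 to 128093474). Msl1, of the MSL acetyltransferase complex, held one of 579 bp, Taf11, a TFIID subunit, one of 552 bp and Rfx5, a factor of MHC class II genes, one of 754 bp. Genes of RNA and translation included Ptbp2, a splicing regulator (1068 bp), Celf2 (1014 bp), Eif4g3, a translation initiation factor (874 bp), and Cpeb1, a cytoplasmic polyadenylation factor (514 bp). Spag6, an axoneme protein gene of the sperm tail, held a site of 518 bp and Zpbp, an acrosome protein gene, one of 547 bp. Rfc1, the large subunit of the clamp loader, held one of 808 bp, Senp7, a SUMO protease, one of 862 bp and Psmc2, a proteasome ATPase, one of 529 bp.

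Many of these genes had no peak at their outermost start in either list. The starts lay a median of 4.21 kb inside the outermost annotated start of the gene, from just over 1 kb to the 524 kb of Celf2. Within 1 kb of that outermost start, 43 of the 60 had no peak in either list (71.7%, 59.2 to 81.5), 9 had one in both lists, 4 only in the knockout list and 4 only in the control list. Among shared sites at starts the first share was 76.6% (71.1 to 81.3), so it did not differ beyond counting error. The 9 with a peak in both lists were Abl1, Atxn7, Iqsec1, Mier1, Prr5, Psmc2, Taf11, Tnpo1 and Tyw1. At Arvcf, Dgkz, Ssh2 and Usp45 the peak near the outermost start was in the control list only, and that at the inner start in the knockout list only. At Gne, Sesn1, Spag6 and Tmem219 the peaks at both starts were in the knockout list only. Over all 4536 start windows whose start lay more than 1 kb from gene ends, 238 (5.25%, 4.64 to 5.93) met a peak of any width in the knockout list alone and 101 (2.23%, 1.84 to 2.70) in the control list alone, while 448 met both.

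The windows at these sites were rich in CpG. In 66 windows met by knockout-only sites the median was 24 CpG (quartiles 17 and 30.75) and 64% GC, against 25 CpG and 64.3% GC in 312 windows met by shared sites. In 29 windows met by control-only sites the median was 18 CpG (12 and 26). The 3749 windows away from gene ends with no peak in either list had a median of 4 CpG (2 and 8) and 49.7% GC. In base composition the knockout-only starts thus lay near the shared ones. The CRE motif bound by CREB and CREM (TGACGTCA), searched on both strands, stood in 2 of the 66 windows (3.03%), against 1.83% of all 31396 windows. The CCAAT box (CCAAT), also searched on both strands, stood in 20 (30.3%), against 37.3% of all windows. An occurrence of one motif can share at most an end letter with the other.

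**Figure D2:**
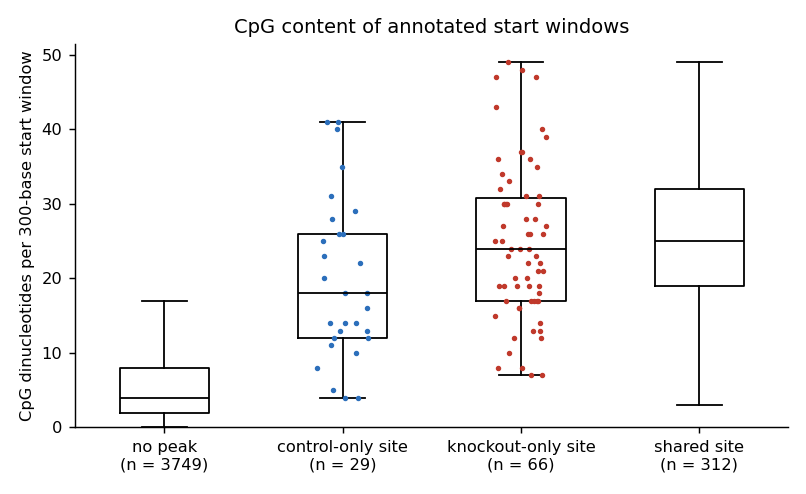
CpG dinucleotides per 300-base start window (y axis) for windows away from gene ends with no peak, and for windows met by wide control-only, knockout-only and shared sites. Boxes give median and quartiles, whiskers reach to the last value within 1.5 box lengths, and dots are single windows. The median is 24 for knockout-only and 4 for windows with no peak.

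Inside protein-coding genes with a known strand, knockout-only sites were more often near the start of the gene than control-only sites. This is no separate pattern, since sites at start windows were not left out. Their starts lay a median of 4.21 kb inside the outermost start. Of 310 such sites, 48 (15.5%, 11.9 to 19.9) lay in the first 10% of the gene, against 22 of 342 control-only sites (6.43%, 4.29 to 9.55) and 120 of 353 shared sites (34.0%, 29.2 to 39.1). Within 5 kb of the outermost start lay 55 (17.7%, 13.9 to 22.4), against 25 control-only sites (7.31%). The stretch from 75% of the gene's length on held 26.1% (21.6 to 31.3) of knockout-only, 28.9% (24.4 to 34.0) of control-only and 5.10% (3.25 to 7.92) of shared sites. Host genes had a median length of 75.9 kb (66.3 to 87.2), against 101 kb (90.2 to 122) for control-only and 46.5 kb (38.8 to 57.2) for shared sites. The median of all autosomal protein-coding genes was 17.5 kb, but the distance rule favours long hosts.

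The second pattern was the position along the chromosome. Mouse autosomes have the centromere at one end, so positions run from the centromere at the start to the far telomere. In the distal 10% of the chromosomes lay 247 of the 725 sites (34.1%, 30.7 to 37.6), although that stretch held 9.91% of the eligible sequence, that is sequence more than 1 kb from every gene end. The density there was 1.09 sites per Mb, against 0.232 per Mb in the rest, a ratio of 4.70. Gene ends, counted per Mb of chromosome length rather than of eligible sequence, were denser there by a ratio of 1.28. The part of gene density in the rise was not tested. The median GC content of start windows was 53.7% there and 53.0% elsewhere, and the base composition of sites outside start windows was not analysed here. The 10% next to the centromere held 43 sites (5.93%, 4.43 to 7.89).

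**Figure D3:**
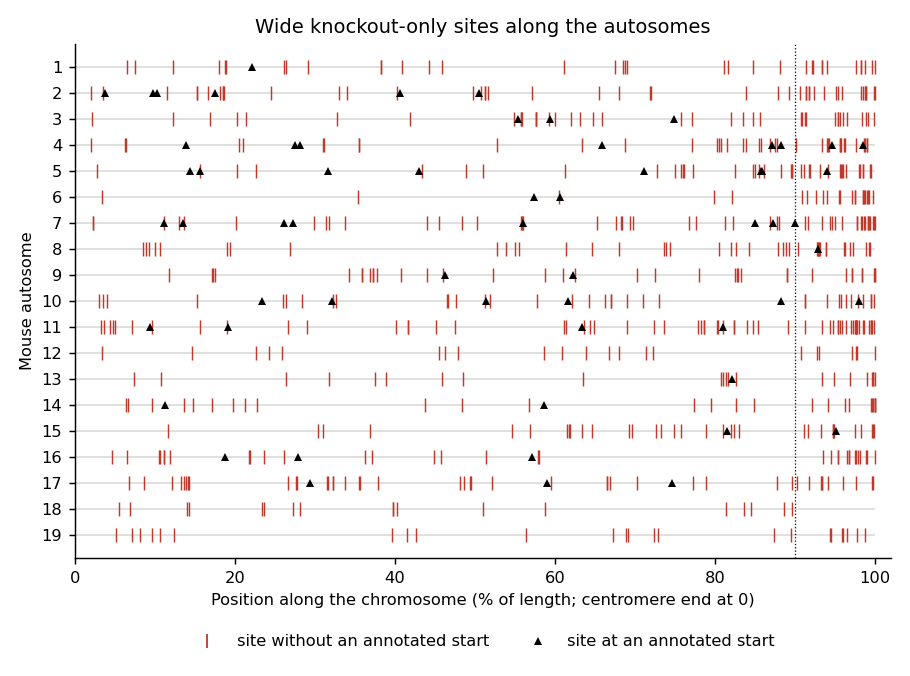
Position of each of the 725 sites along its chromosome (x axis, percent of length, centromere end at 0) on the 19 autosomes (y axis). Bars are sites that met no start window, including all on chromosome 18, which had no windows. Triangles are the 60 sites that met one, and the dotted line marks the distal 10%, which holds 247 sites.

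The rise towards the far end was found on nearly all chromosomes. On 18 of 19 autosomes the distal 10% held a larger share of sites than of eligible sequence. The share was 34.3% in the median chromosome and highest on chromosome 6, with 18 of 25 sites (72%). Chromosome 18 had none of its 18 sites there, while 6 of its 39 control-only sites lay there. Counted from the far end, the density was 2.59 per Mb in the last 1 Mb (45 sites), 1.42 from 1 to 2 Mb, 1.30 from 2 to 5 Mb, 0.890 from 5 to 10 Mb, 0.418 from 10 to 20 Mb and 0.201 beyond 50 Mb. The chromosome length was taken as the farthest gene or peak, and on 3 chromosomes one of the sites itself was that farthest feature.

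Control-only sites showed the same rise. Of these, 309 of 854 (36.2%, 33.0 to 39.5) lay in the distal 10%, a density 5.15 times that of the rest, so knockout-only and control-only sites did not differ there beyond counting error. Shared wide sites rose less, with 124 of 559 (22.2%, 18.9 to 25.8) and a ratio of 2.59. Within the last 1 Mb lay 6.21% (4.67 to 8.20) of knockout-only and 3.63% (2.57 to 5.11) of control-only sites. Beyond the last annotated gene end lay 9 knockout-only sites (1.24%, 0.654 to 2.34), 1 control-only and 7 shared sites. Among knockout-only sites of all widths, the share in the distal 10% was 21.1% (19.9 to 22.4) under 250 bp, 30.8% (28.1 to 33.6) from 400 to under 500 bp, 37.8% (31.7 to 44.3) from 600 to under 800 bp and 30.6% (19.5 to 44.5) in the 49 sites of 800 bp and more.

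**Figure D4:**
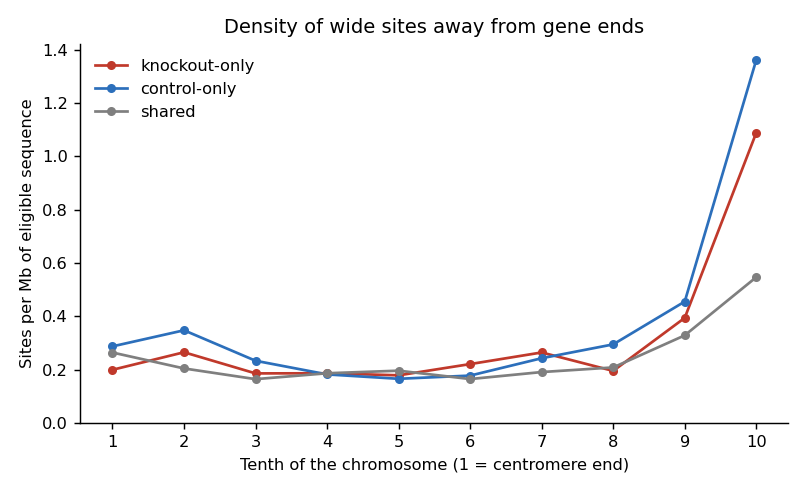
Wide sites away from gene ends per Mb of eligible sequence (y axis) in each 10% of chromosome length, from the centromere end (1) to the far end (10), for knockout-only, control-only and shared sites. All 3 are highest in the final bin, at 1.09, 1.36 and 0.547 per Mb.

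Sites at annotated starts did not share this position. Of the 60, 7 lay in the distal 10% (11.7%, 5.77 to 22.2), against 240 of the 647 sites that met no start window (37.1%, 33.5 to 40.9). The same contrast was present among shared sites, with 39 of 265 (14.7%, 10.96 to 19.5) against 84 of 283 (29.7%, 24.7 to 35.2). Control-only sites showed it too, with 4 of 26 (15.4%, 6.15 to 33.5) against 299 of 789 (37.9%, 34.6 to 41.3). For comparison, 4412 of all 31396 start windows lay in the distal 10%.

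Density also differed between chromosomes. It was 0.317 per Mb of eligible sequence over all and highest on chromosome 11 (0.580), followed by 17 (0.525), 7 (0.447) and 19 (0.446). It was lowest on chromosome 6 (0.178), followed by 1 (0.194), 12 (0.195) and 13 (0.209). Chromosomes 7, 11, 17 and 19 were also those with the most annotated genes, at 28.6, 25.3, 23.1 and 22.4 genes per Mb. Among the others the order was less alike. Chromosome 6 had 19.1 genes per Mb, while chromosome 16, with 15.5, had a density of 0.376. Over all 19 autosomes, the correlation of site density with genes per Mb was 0.679 (Pearson) and 0.451 (Spearman).

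Most sites had no other site of their own class nearby. The median gap between neighbours was 1167 kb (953 to 1425), and 134 of the 706 gaps exceeded 5 Mb. Another of the sites lay within 50 kb of 83 (11.4%, 9.33 to 14.0), and these formed 40 groups, 37 of them pairs. Of the 40 groups, 23 lay in the distal 10%. There the median gap was 493 kb (394 to 613), against 1915 kb (1614 to 2295) in the rest. For control-only sites, which are more numerous, the 2 gaps were 396 and 1359 kb, and 12.3% (10.3 to 14.7) had a neighbour within 50 kb. A control-only site lay within 50 kb of 88 knockout-only sites (12.1%, 9.96 to 14.7), and a shared wide site within 50 kb of 46 (6.34%, 4.79 to 8.36).

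**Figure D5:**
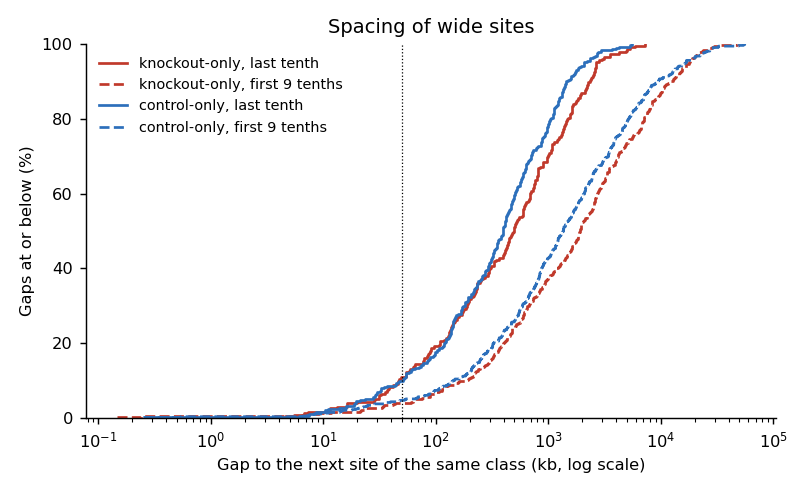
Cumulative percentage of gaps (y axis) at or below a given gap to the next site of the same class (x axis, kb, log scale), for knockout-only and control-only sites in the distal 10% (solid) and in the rest of the chromosome (dashed). The dotted line marks 50 kb. Median gaps are 493 and 396 kb in the distal 10% and 1915 and 1359 kb elsewhere.

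The 2 closest pairs were each inside 1 gene and ended at an annotated start. In Srpk2, a kinase of splicing factors, sites of 606 and 693 bp were 146 bp apart (chromosome 5, 23675035 to 23676479), and the second lay at an annotated start. In Cpeb1, sites of 875 and 514 bp were 240 bp apart (chromosome 7, 81453230 to 81454858), and again the second lay at a start. The next pairs were 2076 bp apart in the cluster of Sprr2a genes, which encode proteins of the epidermal envelope, 4676 bp apart near Cibar2 and 5495 bp apart at the far end of chromosome 14. Of the groups of 3 sites, one spanned 14.2 kb at the far end of chromosome 14 (124786129 to 124800302), beyond Fgf14. Another spanned 38.2 kb at Sprr2a2 and Sprr2a3 (chromosome 3, 92236493 to 92274687).

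Inside any annotated gene lay 452 sites (62.3%, 58.8 to 65.8) and outside genes 273. Of the eligible sequence, 47.8% lay inside a gene. The share was 63.2% (59.9 to 66.4) for control-only and 81.2% (77.8 to 84.2) for shared sites. Sites fell into 388 different genes other than predicted ones, of which 20 held more than 1. The most were 3 sites each, in Shank2, a postsynaptic scaffold gene of 448 kb near the far end of chromosome 7, Fbxl17, an F-box gene of 458 kb on chromosome 17, and Fgf14, a gene of 703 kb near the far end of chromosome 14. The nearest gene end belonged to a protein-coding gene at 400 sites (55.2%, 51.5 to 58.8) and to a long non-coding RNA gene at 205 (28.3%, 25.1 to 31.7). For control-only sites these were 49.5% (46.2 to 52.9) and 33.0% (29.9 to 36.2).

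The outermost sites along the chromosomes lay outside genes. The site nearest a chromosome start lay on chromosome 4 (3052976 to 3053572), 50127 bp from the pseudogene Vmn1r-ps2. The site nearest an end lay on chromosome 16 (98106485 to 98107013), 76025 bp from the pseudogene Vmn2r-ps112. The sites farthest from any gene end lay inside genes. The farthest was a site of 623 bp on chromosome 7 (94924171 to 94924793), inside a predicted gene, 321741 bp from the nearest end. The nearest gene other than predicted ones was Tenm4, a teneurin gene, 1246451 bp away. Next were sites inside Gpc6, a glypican gene, and Rbfox1, a neuronal splicing factor gene, 294615 and 270201 bp from the nearest gene end.

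None of the autosomal genes on the 10 lists held one: 13 of PRDM9 and break formation, 22 of strand exchange and crossover formation, 19 of the chromosome axis and synaptonemal complex, 14 of the SRCAP and H2A.Z machinery, 19 pachytene and spermatid regulators, and the lists of hotspot-named, spermatogonial, Sertoli, other somatic and housekeeping genes. Of all 20665 autosomal protein-coding genes, 391 (1.89%) held one, and those had a median length of 71.4 kb against 17.5 kb for all. At that share, 0 in lists of this size is close to the background and is no result about meiotic genes. Genes with a role in meiosis outside the lists did hold sites, among them Cpeb1 with 2 and the ubiquitin ligase gene Ubr2 with 1, both named after their values were seen. As the nearest gene, other than predicted ones, to a site outside genes there were 8 list members. They were Hormad2 and Stag3 of the chromosome axis (12441 and 11306 bp from the gene), Anp32e, the H2A.Z chaperone (3396 bp), Dmrt1 and Foxo1 of spermatogonia, Fshr of Sertoli cells, Cdh5 of endothelium (1869 bp) and Actb (12955 bp). Over all autosomal protein-coding genes, 634 (3.07%) held a site or were the nearest gene of one.

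The files bear on recombination hotspots only through position. They hold no map of PRDM9 marks or of DNA breaks, the mouse strain, which sets the PRDM9 motif, is not given, and the sequence under sites that met no start window was not analysed here. Overlap of the sites with hotspots was therefore not tested. Distances to the nearest site were measured for 7 genes that hold or name known mouse hotspots. Distances for genes in general were not measured, and there were only 0.317 sites per Mb of eligible sequence. The distances are therefore no result about hotspots. The nearest to Psmb9, the proteasome subunit gene of the major histocompatibility region, was a site of 543 bp 403 kb away on chromosome 17 (33778580 to 33779122). The same site was nearest to Tap1, H2-Ob, H2-Eb1 and H2-Ea, at 408 to 563 kb. Hlx had a site of 687 bp 1.07 Mb away and Esrrg one of 500 bp 2.67 Mb away on chromosome 1. The nearest control-only sites were 2.70 Mb from Psmb9, 0.561 Mb from Hlx and 0.297 Mb from Esrrg. As measured, 647 of the 707 sites on chromosomes with start windows met none of the windows given. The sites were concentrated towards the far telomeres, and control-only sites chosen in the same way had the same concentration.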

How the data were processed

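The authors deposited 1 peak list for each genotype, with 3 columns and no header, and other values such as height, score, p or summit are not in them. Per the submitters' processing notes, the build was mm10 and the tools were MACS2 2.2.4, Picard 2.20.7, Bowtie2 2.3.4.3 and cutadapt 2.5. The sources used here do not give the calling threshold, the read shift or whether replicates were pooled. The depth behind each list is unknown.

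Repeated intervals were counted once. Overlap was 1 bp or more. Gene ends came from a RefSeq table of GRCm38.p6 and start windows from RefSeq on the same assembly, for 18 autosomes. Positions are 1-based. Python 3.11.15, numpy 2.4.6, pandas 2.3.3, scipy 1.17.1 and matplotlib 3.10.9 were used. The choice of sites was tested on 1600 simulated intervals, of which the 800 meeting the rule were called and the others not, and bedtools 2.31.1 gave the same 1617 wide knockout-only peaks. Medians carry order-statistic intervals. Named sites follow a rule (widest, closest, outermost, nearest the thresholds, list members) except where stated. Predicted gene names were replaced by the nearest other gene. The sites, lists and rules were chosen with earlier results of these data known. The alternatives were other widths, overlaps, gene distances and line counts.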

Additional observations from a re-analysis of the deposited data

How the results depend on the processing

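Of 84 recomputed values, 53 stayed within the counting interval of the value reported (for the number of sites, within 1.5 times). A turn of direction was defined only for the ratio to control-only sites, which rose above 1 under no setting. With a minimum of 400 bp there were 1801 sites, a median gap of 472 kb, 18.2% with a neighbour within 50 kb and a ratio to control-only sites of 0.970 (0.908 to 1.04). With 700 bp these were 114, 8975 kb, 3.51% and 0.765, with 68.4% inside a gene, 5.99 kb to the nearest gene end and 61.4% nearest to a protein-coding gene. With 1000 bp they were 15, 32770 kb, 0% and 1 (15 sites in each list), with 66.7% inside a gene, 5.01 kb, 66.7% and 40% in the distal 10%. The knockout-only sites were thus not fewer beyond counting error at 400 bp, nor fewer at all at 1000 bp. Limits of 500 bp and 3 kb from gene ends gave 8.06 and 13.1 kb to the nearest end. Keeping the 1 kb limit from ends of protein-coding genes only gave 840 sites. Their median distance to the nearest end of any gene was 6.92 kb, and 47.6% were nearest to a protein-coding gene. Intervals on at least 2 lines, required in both lists, gave 495 sites with 66.1% inside a gene, a median gap of 1563 kb, 7.12 kb and 62.6%. Of the 725 sites only 362 stood on 2 or more lines. The rest of the 495 were peaks that overlap a control interval on 1 line, dropped by this filter. A neighbour lay within 10 kb of 2.62% and within 200 kb of 30.1%, and the last 5% and last 10 Mb of the chromosomes held 22.9% and 29.8%. A change follows from construction for the number of sites and the gaps under another width. It also does for the distance to the nearest end under another limit on it, and for the neighbour distances and chromosome stretches just given. With coding ends only, the distance and the coding share fall by construction, since each added site lies nearest another kind of gene end. For the others the cause was not tested.

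The share at annotated starts was examined after seeing the data. It was 4.89% at 400 bp, 25.5% at 700 bp, 12.5% with under 50% coverage allowed, 6.27% at 3 kb from gene ends, 12.7% with coding ends only and 21.5% for intervals on at least 2 lines, where control-only sites gave 2.15%, 6.52%, 4.45%, 2.25%, 5.75% and 11.1%. It was higher in the knockout-only sites under all 10 alternatives. The setting of at least 2 lines let in peaks that overlap a single-line interval of the other list.

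No paired analysis was possible because 1 list per genotype was analysed. For the same reason no replicate was left out.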
